A study of Mus musculus with 2 samples.

Results

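The 9 genes described here encode enzymes that make or break down prostaglandins and receptors that bind them: Ptgs1, Ptgs2, Ptges, Ptgis, Hpgd, Ptger2, Ptger3, Ptger4 and Ptgfr. They were chosen by symbol, without a threshold on any measured value, and each has 1 row among the 28692 genes of the count tables. Their levels were read in cells sorted from mouse lung after saline or bleomycin, across cell classes and fibroblast states.

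Prostaglandins are lipid signals made from arachidonic acid, which phospholipases A2 release from membranes. The cyclooxygenases, encoded by Ptgs1 (COX-1, usually present at a steady level) and Ptgs2 (COX-2, induced by cytokines, growth factors and injury), turn arachidonic acid into prostaglandin H2, and terminal synthases turn that into a particular prostaglandin. In lung fibroblasts, prostaglandin E2 acting through the receptors EP2 and EP4 is known to dampen proliferation and collagen synthesis, prostacyclin acts on vessels, and the lung endothelium is a main site of prostaglandin uptake and breakdown.

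Both libraries came from lungs of Lepr-Cre;Rosa26-tdtomato mice aged 8-10 weeks, 1 library after saline and 1 after bleomycin, a drug given to animals to produce lung injury and fibrosis. In these mice Cre recombinase, driven from the leptin receptor gene, switches on the red fluorescent protein for good, so the label marks cells with present or past activity of that driver. Live red cells were sorted and sequenced with 10x Genomics droplets, which count the 3′ ends of transcripts by unique molecular identifier (UMI). How many mice went into a library, how much bleomycin they had and how long before the cells were taken is not given in the sources used here.

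After filtering, 5194 cells were kept from the saline library and 4308 from the bleomycin library, with medians of 6305 and 12265.5 UMIs per cell. Lepr itself was at 43.4 UMIs per 1000000 UMIs (UPM) in the saline barcodes and 7.12 UPM in the bleomycin barcodes. Fibroblasts made up 68.6% of the saline cells and 81.5% of the bleomycin cells, immune cells 14.0% and 9.61%, and epithelial cells 9.01% and 0.116%. The 7 fibroblast markers summed to 11503 UPM in saline and 17029 UPM in bleomycin fibroblasts. All 7 were also detected in endothelial cells (3018 and 486 UPM), smooth muscle (2256 and 2901 UPM) and immune cells (1396 and 1084 UPM). Detection of these markers thus set no class apart. A class name stands for clusters in which the markers of that type were found, on average, in the largest share of cells. The libraries shared 33 barcodes, 32 of them among cells kept. With 1 library per group, no test between saline and bleomycin was possible, and a difference has no replicate check.

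Levels are given in UPM, the UMIs of a gene in a class or state over all UMIs of those cells, with an exact 95% Poisson interval in parentheses where one is shown. Intervals and limits cover counting error only, not differences between mice or sorts. Those of levels and folds also leave out the uneven spread of UMIs over cells. "Rose" and "fell" are used of a gene only when the higher library held at least 50 UMIs and 20 UPM of it and the levels differed at least 2-fold. Ratios are log2 of bleomycin over saline, with 1 UPM added to each level. Shares of cells were taken after thinning every cell to 2000 UMIs. Where a share is 0, the limit given beside it is the share that 3 cells would make, a floor other than the 95% interval. Intervals that overlap do not show that values are equal.

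Fibroblasts fell into 12 states that are named here by leading genes. In the saline library the main states were the alveolar fibroblast states Slc7a10/Colq (1116 cells), Tnfaip6/Fosb (901 cells) and Rbp4/Gdf10 (547 cells), the adventitial state Meg3/Scara5 (234 cells), Adh7/Pi16 (491 cells) and Cxcl9/Cxcl5 (219 cells). In the bleomycin library they were the alveolar state Mfap4/Ces1d (320 cells), Meg3/Scara5 (180 cells), Chl1/Sfrp1 (685 cells), Cfd/Serpina3m (950 cells) and the fibrotic states Anxa8/Msln (692 cells), Thbs4/Igfbp2 (458 cells) and Ube2c/Birc5 (165 cells, cycling). Only Meg3/Scara5 and Cxcl9/Cxcl5 (36 cells after bleomycin) held at least 30 cells in both libraries, so a fibroblast ratio mixes levels within states with the numbers of cells in each state.

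In fibroblasts as a whole, Ptgs2 and the prostaglandin F receptor gene Ptgfr fell after bleomycin, and no member rose. Of the 9 members, 7 had enough UMIs to be read in this comparison, so 2 of 7 fell, where 9.72% of the 5884 genes measured fell and 6.19% rose. The median log2 ratio was -0.05 over the 7 members and -0.01 over all genes measured. Ptgis, Ptges, Ptgs1, Ptger2 and Ptger4 stayed under 2-fold, and Hpgd and Ptger3 were under 20 UPM in both libraries.

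**Figure D1:**
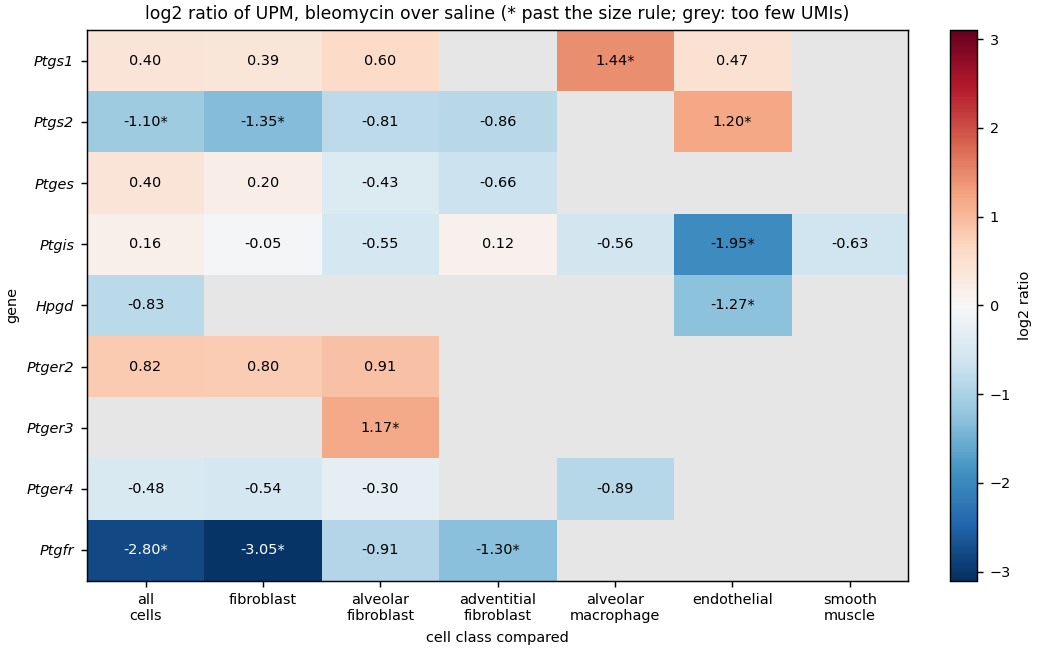
Log2 ratio of the level in UPM, bleomycin over saline, for the 9 genes (vertical axis) in 7 cell classes (horizontal axis), with 1 library per group and no test. Asterisks mark values past the size rule and grey cells too few UMIs. Ptgfr in fibroblasts is the lowest value at -3.05, and Ptgs2 is -1.35 in fibroblasts and 1.20 in endothelial cells.

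The cyclooxygenase genes come first, with the 250 bases before the RefSeq start of each, because only Ptgs2 of this pair changed past the size rule in fibroblasts. Ptgs1 (ENSMUSG00000047250) lies at chr2:36230426-36252272 on the plus strand and Ptgs2 (ENSMUSG00000032487) at chr1:150100031-150108227 on the plus strand of GRCm38. The windows below are chr2:36230176-36230425 and chr1:150099781-150100030 on the plus strand of GRCm38.p6, written 5′ to 3′, with 48.0% and 61.6% G or C.
Ptgs1: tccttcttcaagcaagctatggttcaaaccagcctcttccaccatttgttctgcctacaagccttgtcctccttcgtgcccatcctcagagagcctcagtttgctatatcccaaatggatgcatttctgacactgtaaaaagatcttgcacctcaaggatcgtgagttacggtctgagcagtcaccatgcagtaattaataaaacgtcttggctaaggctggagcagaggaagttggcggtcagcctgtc
Ptgs2: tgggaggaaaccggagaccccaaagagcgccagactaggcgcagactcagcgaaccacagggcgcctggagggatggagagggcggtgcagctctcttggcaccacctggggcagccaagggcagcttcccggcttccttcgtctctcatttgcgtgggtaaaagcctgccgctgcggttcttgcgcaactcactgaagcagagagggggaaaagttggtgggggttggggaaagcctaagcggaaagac
Both windows were searched on both strands for 5 motifs, and 27025 mouse promoters of this length served as background. The TATA box letters TATAAA are in 13.0% of them, the cyclic AMP response core TGACG in 17.9%, the AP-1 site TGANTCA in 6.87%, the E-box CACGTG in 6.05% and the CCAAT box in 34.5%. Neither window held any of the 5, which says only that these letters are not there. In the first 50 bases after the annotated start, looked at after the first search, Ptgs2 held CACGTG and, on the minus strand, TGACG, and these matches overlap. They are in capitals in this 30-base stretch, chr1:150100034-150100063 on the plus strand, which starts at base 4 of the transcript.
Ptgs2 start: gtcaccactaCGTCACGTGgagtccgcttt
In the longer window of 300 bases, 7.24% of promoters held CACGTG and 21.0% held TGACG. RefSeq promoters were found for 8 of the 9 members, all but Ptgis, and the only other matches before a start were CCAAT in Ptger2 and in Ptger4.

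Ptgs1 was detected in fibroblasts, capillary endothelium, alveolar macrophages and alveolar type 2 cells, and not in smooth muscle or pericytes. Its fibroblast level was 21.7 UPM (19.9-23.6) after saline and 28.7 UPM (27.2-30.2) after bleomycin, a log2 ratio of 0.39, which is under 2-fold. After thinning, 4.29% of saline and 6.26% of bleomycin fibroblasts held a UMI, against 13.0% and 29.0% before thinning. No smooth muscle cell did, which allows a share of up to 2.94% of 102 saline cells and 2.97% of 101 bleomycin cells. Median depths were 6837 and 13583.5 UMIs per fibroblast and 5407.5 and 7399 UMIs per smooth muscle cell. In alveolar type 2 cells, which were nearly all in the saline library (309 cells), the level was 58.7 UPM (48.2-70.9).

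Among fibroblast states with at least 50 cells, Ptgs1 was lowest in the adventitial state Meg3/Scara5 in both libraries. After saline it was at 1.59 UPM (0.193-5.75) there and at 6.03 UPM (3.63-9.41) in Adh7/Pi16, which was given no fibroblast kind. In the 3 saline alveolar states it was at 23.7 to 26.9 UPM, with intervals that overlap one another. After bleomycin the order was Chl1/Sfrp1 at 47.6 UPM (43.2-52.2), Mfap4/Ces1d at 40.8 UPM (34.0-48.7), Cfd/Serpina3m at 36.2 UPM (33.0-39.7), then the 3 fibrotic states at 16.2 to 19.8 UPM and Meg3/Scara5 at 7.21 UPM (3.73-12.6). Neighbours in the first 3 places overlap in their intervals, and so do the 3 fibrotic states.

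In alveolar macrophages, the resident phagocytes of the airspace, Ptgs1 rose from 12.0 UPM (8.33-16.6) to 34.2 UPM (27.1-42.6), a 2.86-fold difference (1.90-4.39). It was the 1 riser among 3 members measured in this class, and none fell, where 2.95% of 5157 genes rose and 5.47% fell. The macrophages came mostly from different clusters in the 2 libraries, led by Fabp1 and Cidec after saline and by Ear10 and Marco after bleomycin. With each library clustered alone the log2 ratio was 0.70 instead of 1.44, and the call was lost.

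Ptgs2 was carried by few cells. The 1240 fibroblast UMIs of the saline library lay in 11.7% of its fibroblasts, with 26 in a single cell, and the 951 of the bleomycin library in 9.68%, with 28 in a single cell. Thinned shares were 4.71% (4.04-5.46) and 2.88% (2.35-3.48) of fibroblasts, against 0.782% and 0% of alveolar macrophages, the latter allowing up to 0.904% of 332 cells (median depths 4167 and 6714 UMIs). Smooth muscle, endothelial and epithelial cells held Ptgs2 too. The shares were 6.86% (2.80-13.6) and 2.97% (0.617-8.44) of smooth muscle cells and 3.90% (1.44-8.29) and 9.14% (5.41-14.2) of endothelial cells. In saline epithelial cells the share was 5.34% (3.49-7.78), at 34.9 UPM. Smooth muscle levels were 42.9 UPM after saline and 20.5 UPM after bleomycin, from 25 and 17 UMIs, too few for a call. The fibroblast level fell from 48.1 UPM (45.5-50.9) to 18.3 UPM (17.1-19.5), a log2 ratio of -1.35. In all cells together it fell from 41.5 to 18.9 UPM, 1 of the 2 members of 8 measured that fell there, beside Ptgfr, and none rose, where 9.57% of 6053 genes fell and 5.04% rose.

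Most of the Ptgs2 UMIs in saline fibroblasts came from 1 alveolar fibroblast state. Tnfaip6/Fosb held 728 of the 1240 UMIs at 103 UPM (95.7-111), while the other alveolar states, Rbp4/Gdf10 and Slc7a10/Colq, were at 11.9 UPM (8.74-15.7) and 10.6 UPM (8.42-13.2). Outside the alveolar states, Meg3/Scara5 was at 74.8 UPM (60.5-91.5), Cxcl9/Cxcl5 at 53.2 UPM (43.7-64.1) and Adh7/Pi16 at 50.1 UPM (42.6-58.6), the last 2 not distinct by their intervals. After bleomycin the highest state was Meg3/Scara5 at 40.9 UPM (31.7-51.8), followed by Mfap4/Ces1d at 26.3 UPM, Chl1/Sfrp1 at 25.5 UPM and Thbs4/Igfbp2 at 23.8 UPM, whose intervals overlap. Anxa8/Msln was at 14.4 UPM, Cfd/Serpina3m at 10.4 UPM and Ube2c/Birc5 at 8.80 UPM.

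How much of the difference lay in Tnfaip6/Fosb was read by leaving it out, an alternative chosen after seeing the data. The state has the highest Ptgs2 level and holds 901 saline and 4 bleomycin cells, so leaving it out could only lower the saline level, and the values describe its weight and test nothing. Without it the fibroblast level was 27.4 UPM after saline and 18.3 UPM after bleomycin, a log2 ratio of -0.56, under 2-fold, and Ptgfr was the 1 member past the size rule, where 9.09% of genes measured fell and 6.05% rose. In alveolar fibroblasts the level with all states was 45.4 UPM (42.4-48.5) after saline and 25.4 UPM (20.1-31.6) after bleomycin, a log2 ratio of -0.81 that misses 2-fold. Without Tnfaip6/Fosb it was 11.0 UPM after saline and 25.7 UPM after bleomycin, which is 2.34-fold higher (1.75-3.12). Ptger3 was then also higher past the size rule and Ptgfr lower, where 1.9% of genes rose and 3.01% fell.

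Immediate early genes, which cells switch on soon after a stimulus, were highest in the same state as Ptgs2, but the other states did not follow 1 order for both. Immediate early genes were not left out of the clustering that made this state, so its top place for their sum is no separate finding. With them left out, the highest saline Ptgs2 state was at 134 UPM and held 68.3% of the Tnfaip6/Fosb cells. The summed level of a list of 25 was 35639 UPM in Tnfaip6/Fosb, the state that Fosb and Egr1 also lead, against 19472 UPM in Slc7a10/Colq and 14260 UPM in Rbp4/Gdf10. Saline Cxcl9/Cxcl5 had a sum of 18594 UPM, below that of Slc7a10/Colq, with Ptgs2 at 53.2 UPM against 10.6 UPM. Bleomycin Meg3/Scara5 and Thbs4/Igfbp2, with sums of 9904 and 6763 UPM, also had more Ptgs2 than Slc7a10/Colq. Over all fibroblasts the sum was 23715 UPM after saline and 8051 UPM after bleomycin, and 19 of the 24 listed genes measured fell, Fosb by 2.73 and Egr1 by 2.24 on the log2 scale. Within Tnfaip6/Fosb, cells with and without a Ptgs2 UMI had the same median of 72 immediate early UMIs per 2000. In the 3 other states with at least 20 such cells the median was higher in cells with a Ptgs2 UMI, at 28.5 against 13 in Chl1/Sfrp1, 65 against 49 in Adh7/Pi16 and 56.5 against 45 in saline Meg3/Scara5. Their part in the fall of Ptgs2 was not tested.

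**Figure D2:**
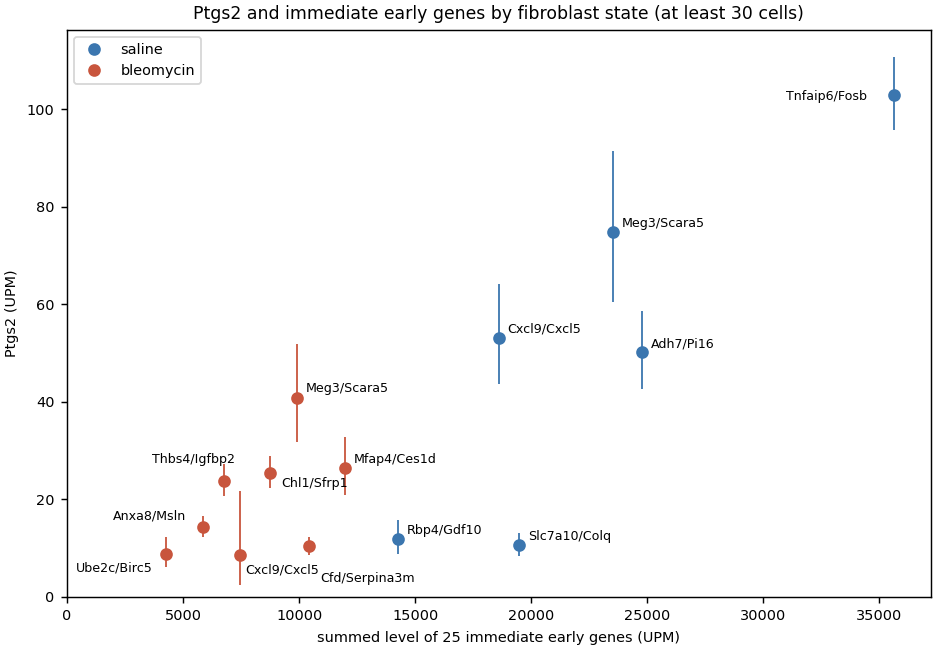
Ptgs2 level in UPM (vertical axis, bars are exact 95% Poisson intervals) against the summed level of 25 immediate early genes in UPM (horizontal axis) in fibroblast states with at least 30 cells. Each point is 1 state in 1 library, blue for saline and red for bleomycin. Tnfaip6/Fosb stands highest on both axes at 103 and 35639 UPM, and Slc7a10/Colq is at 10.6 UPM of Ptgs2 with a sum of 19472 UPM. Immediate early genes were not left out of the clustering that made the states.

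In endothelial cells Ptgs2 went the other way, from 23.7 UPM (15.9-34.0) to 55.6 UPM (45.6-67.2), a rise of 2.35-fold (1.55-3.67). It was the 1 riser among 4 members measured there, while 2 fell, where 9.78% of 4988 genes rose and 10.5% fell. The UMIs were few, 29 in 154 saline cells and 107 in 186 bleomycin cells, with 10 and 12 in single cells. Keeping the doublet candidates took the log2 ratio from 1.20 to 0.94 and ended the call. The immediate early list had 17 of 21 genes measured falling in this class, with a sum of 25524 UPM after saline and 11002 UPM after bleomycin.

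General capillary cells, of which there were 109 after saline and 97 after bleomycin, the latter under the minimum of 100 for a ratio, held 97 of the 107 endothelial Ptgs2 UMIs after bleomycin. Gpihbp1 and Sema3c of the general capillary marker list lead this cluster, but so do Vwf and Slc6a2 of the venous list. No cluster was named venous, so venous cells in it were not told apart. There Ptgs2 was at 27.4 UPM (17.9-40.1) and 116 UPM (93.8-141), and Ptgs1 at 45.3 UPM (32.8-61.0) and 120.4 UPM (98.1-146), so neither pair of intervals overlaps. By the size rule both rose there and Ptgis fell, where 5.19% of 3293 genes rose and 11% fell. Thinned shares of cells with a UMI were 4.59% (1.51-10.4) and 16.5% (9.73-25.4) for Ptgs2 and 11.0% (5.82-18.4) and 21.6% (13.9-31.2) for Ptgs1, with overlapping intervals. The shares before thinning were 6.42% and 24.7% for Ptgs2 and 22.9% and 51.5% for Ptgs1, at median depths of 8136 and 7320 UMIs. In 71 lymphatic endothelial cells of the bleomycin library Ptgs1 was not seen and Ptgs2 was at 6.24 UPM. The immediate early sum of the capillary cells was 26750 UPM after saline and 20140 UPM after bleomycin.

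Ptges (ENSMUSG00000050737, chr2:30889471-30929863, minus strand) encodes the microsomal prostaglandin E synthase that often works with COX-2. In these cells it was highest in fibroblasts and pericytes. The fibroblast level was 63.3 UPM (60.3-66.5) after saline and 73.0 UPM (70.7-75.3) after bleomycin, a log2 ratio of 0.20. Pericytes were at 49.0 UPM (26.1-83.8) and 39.0 UPM (21.8-64.4), which overlap with each other and, after saline, with fibroblasts. Smooth muscle was at 1.72 UPM and 7.24 UPM. The thinned share of fibroblasts with a UMI was 11.1% after saline and 12.0% after bleomycin, against 0.980% and 0.990% of smooth muscle cells, and 32.4% and 52.2% of fibroblasts before thinning.

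The order of fibroblast states was another one for Ptges than for Ptgs2. It was highest in Cxcl9/Cxcl5, the state led by interferon-induced and neutrophil-attracting chemokines, at 98.2 UPM (85.1-113) after saline and 121 UPM (91.6-157) in the 36 bleomycin cells. The fibrotic state Anxa8/Msln followed at 97.3 UPM (91.9-103), where Ptgs2 was 14.4 UPM. The lowest levels were 33.9 UPM (27.8-41.0) in Adh7/Pi16, 43.9 UPM (34.4-55.1) in bleomycin Meg3/Scara5 and 48.7 UPM (41.2-57.3) in Mfap4/Ces1d. Meg3/Scara5 went from 70.0 UPM (56.2-86.3) after saline to 43.9 UPM, a log2 ratio of -0.66 that is under 2-fold.

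Ptgis (ENSMUSG00000017969, chr2:167191805-167240604, minus strand) encodes prostacyclin synthase, which makes the vessel-relaxing prostaglandin I2. It was found in most fibroblasts and in smooth muscle. Fibroblasts were at 523 UPM (514-532) after saline and 506 UPM (500-513) after bleomycin, and 61.0% and 52.7% of thinned cells held a UMI (89.6% and 90.9% before thinning), against 2.91% of the 309 saline alveolar type 2 cells, whose median depth was 5963 UMIs. Smooth muscle was at 584 UPM (523-649) and 378 UPM (337-422), a log2 ratio of -0.63, the only member measured there, where 6.48% of 2332 genes rose and 3.77% fell. Pericytes were at 18.8 and 18.2 UPM.

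Under the flat fibroblast total, Ptgis ranged 3.5-fold among bleomycin states. Anxa8/Msln was at 879.7 UPM (863-896), with a UMI in 75.9% of thinned cells, and Cfd/Serpina3m at 576 UPM (563-590). Meg3/Scara5 at 383 UPM, Ube2c/Birc5 at 378 UPM and Mfap4/Ces1d at 375 UPM had overlapping intervals. Thbs4/Igfbp2 was at 275 UPM (264-286) and Chl1/Sfrp1 at 251 UPM (241-262). The saline states were closer together, from 352 UPM (320-386) in Meg3/Scara5 to 627 UPM (609-645) in Slc7a10/Colq. The 2 largest fibrotic states, Anxa8/Msln and Thbs4/Igfbp2, thus stood near opposite ends for this gene.

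**Figure D3:**
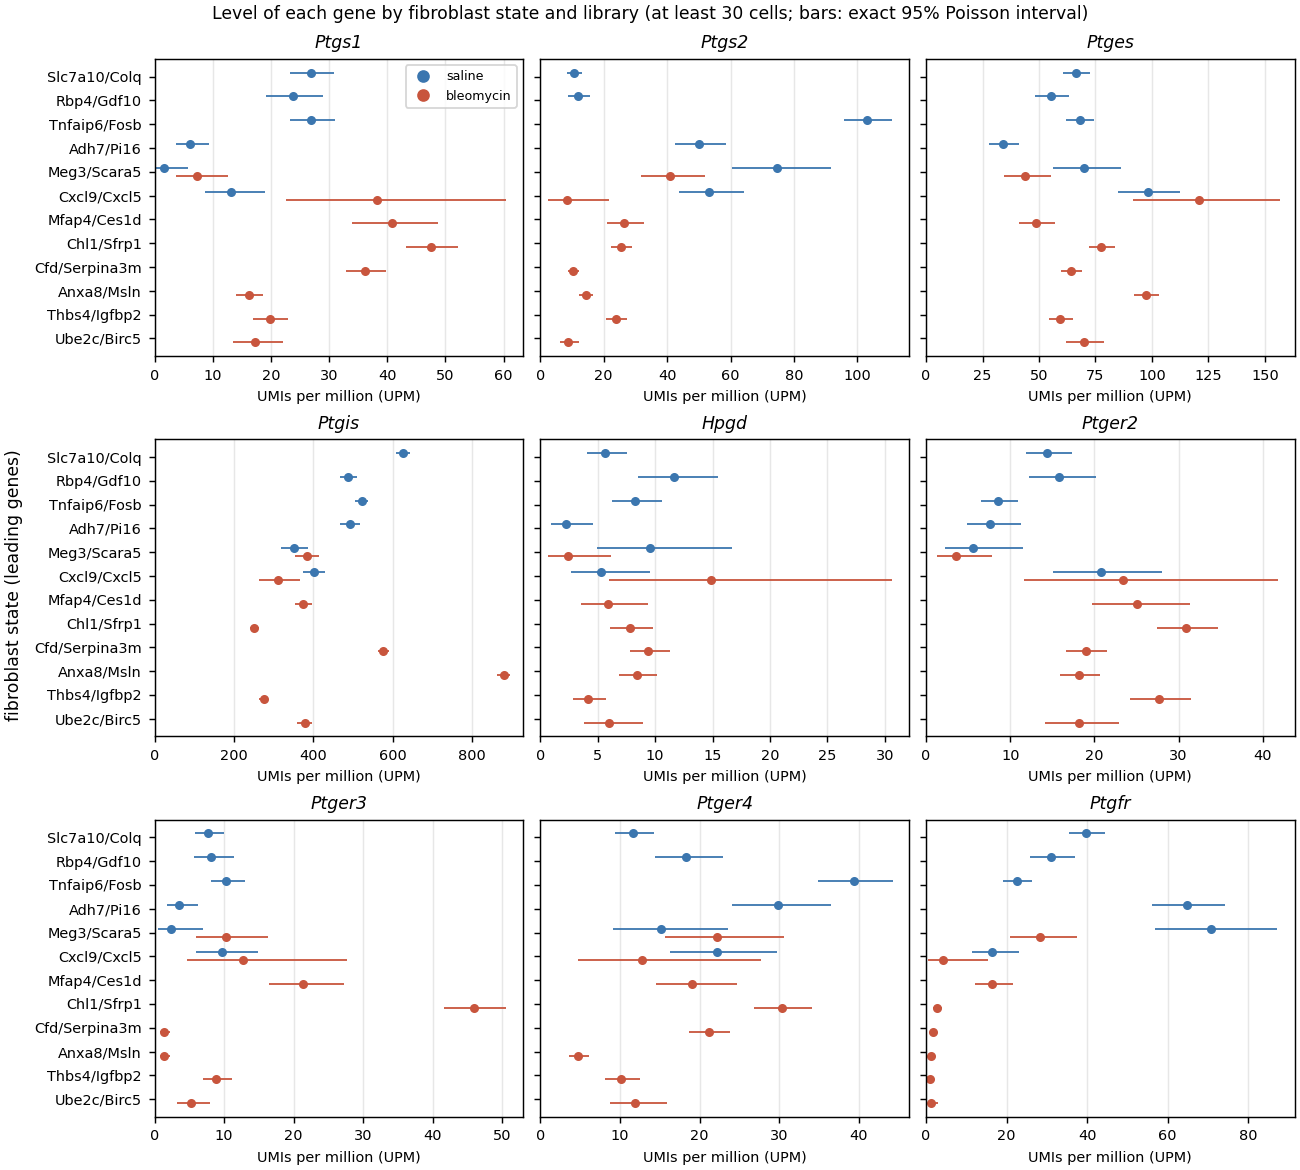
Level of each gene in UPM (horizontal axes, bars are exact 95% Poisson intervals) in the 12 fibroblast states (vertical axis, named by leading genes) with at least 30 cells in a library, blue for saline and red for bleomycin. Each panel has its own scale. Ptgis peaks at 879.7 UPM in Anxa8/Msln, Ptger3 at 46.0 UPM in Chl1/Sfrp1, and Ptgfr is at 64.7 and 70.8 UPM in 2 saline states and at 0.942 to 2.70 UPM in 5 bleomycin states.

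In endothelial cells Ptgis fell from 182 UPM (159-208) to 46.2 UPM (37.1-56.9), a log2 ratio of -1.95, and in the general capillary cells it was at 227 UPM (198-260) and 73.9 UPM (56.7-94.7). Fibroblast genes moved with it. The summed level of the 7 fibroblast markers in capillary cells was 3803 UPM after saline and 546 UPM after bleomycin, with 0 and 1 of the 7 undetected, and in fibroblasts themselves 11503 and 17029 UPM. Other members found mainly in fibroblasts were also lower in the bleomycin capillary cells, Ptges at 27.4 and 3.58 UPM and Ptgfr at 15.8 and 0 UPM. The 6 endothelial markers summed to 5740 and 6898 UPM. The part of fibroblast RNA in the endothelial fall of Ptgis was not tested.

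Hpgd (ENSMUSG00000031613, chr8:56294585-56321043, plus strand) encodes the dehydrogenase that inactivates prostaglandins. It marked the cluster named general capillary, which Vwf and Slc6a2 of the venous list also lead. Hpgd was there at 733 UPM (679-789) after saline and 521 UPM (473-572) after bleomycin, a 0.711-fold level (0.629-0.803) that is under a 2-fold change. Thinned shares of these cells were 59.6% (49.8-68.9) and 43.3% (33.3-53.7), and 77.1% and 66.0% before thinning, against 1.49% and 1.42% of fibroblasts. In endothelial cells as a whole it fell from 572 UPM (530-615) to 237 UPM (216-260), a log2 ratio of -1.27. Lymphatic cells, which had Hpgd at 4.16 UPM after bleomycin, numbered 19 of 154 endothelial cells in the saline library and 71 of 186 in the bleomycin library, so the mix of the class differed between libraries.

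Outside endothelium the highest Hpgd level was in a cluster that could not be named, led by Hhip and Fgf18 and carrying both fibroblast and smooth muscle markers. It was at 88.5 UPM (63.8-120) in 132 saline cells and 57.2 UPM (34.9-88.3) in 42 bleomycin cells, which overlap. The same cluster had Ptgs1 at 27.4 UPM (14.6-46.8) and 85.8 UPM (57.9-122). Fibroblasts as a whole had Hpgd at 6.94 and 7.32 UPM, and no fibroblast state with at least 30 cells was above 14.9 UPM.

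Ptger2 (ENSMUSG00000037759, chr14:44988195-45003820, plus strand) encodes EP2, a prostaglandin E2 receptor that raises cyclic AMP. Its fibroblast level was 12.3 UPM (11.0-13.7) after saline and 22.1 UPM (20.8-23.4) after bleomycin, a log2 ratio of 0.80 that is under 2-fold. With every cell thinned the ratio was 1.12, past the size rule, and thinned shares were 2.02% (1.58-2.54) and 4.44% (3.78-5.18), or 7.88% and 24.1% before thinning. No thinned alveolar type 2 cell of the saline library held one, which allows up to 0.971% of 309 cells, nor did any of 186 endothelial cells after bleomycin, which allows up to 1.61%. All fibroblast states of the bleomycin library with at least 30 cells except Meg3/Scara5, at 3.60 UPM, lay between 18.1 and 30.9 UPM, whereas saline states ran from 5.57 UPM in Meg3/Scara5 to 20.8 UPM in Cxcl9/Cxcl5. Alveolar macrophages were at 19.8 UPM (15.05-25.6) and 19.7 UPM (14.4-26.3).

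Ptger4 (ENSMUSG00000039942, chr15:5206661-5244187, minus strand) encodes EP4, the other prostaglandin E2 receptor that raises cyclic AMP. Its fibroblast level was 23.9 UPM (22.1-25.9) after saline and 16.2 UPM (15.1-17.3) after bleomycin, a log2 ratio of -0.54. Tnfaip6/Fosb was highest at 39.4 UPM (34.9-44.3) and Slc7a10/Colq lowest of the saline states at 11.7 UPM (9.36-14.3). Without Tnfaip6/Fosb the fibroblast levels were 18.1 and 16.2 UPM. After bleomycin Chl1/Sfrp1 was at 30.3 UPM (26.9-34.1) and Anxa8/Msln at 4.71 UPM (3.58-6.07), the lowest of all states. Monocytes or interstitial macrophages had 58.0 UPM (41.8-78.4) after saline and 13.3 UPM (6.39-24.5) after bleomycin in 86 and 82 cells of a mixed cluster that immunoglobulin and C1q genes lead. The 7 fibroblast markers summed to 4366 and 2060 UPM in these cells, all detected in both libraries, and the 6 immune markers to 2779 and 6894 UPM. Their part in the Ptger4 difference was not tested. Alveolar macrophages had 28.7 and 14.98 UPM, a log2 ratio of -0.89.

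Of the 2 cyclic AMP-raising receptors, Ptger2 had the higher level in the 2 largest fibrotic states. Anxa8/Msln had Ptger2 at 18.2 UPM (15.9-20.7) with Ptger4 at 4.71 UPM, and Thbs4/Igfbp2 had Ptger2 at 27.7 UPM (24.2-31.4) with Ptger4 at 10.1 UPM (8.10-12.5). Chl1/Sfrp1 had the highest levels of the bleomycin states, with Ptger2 at 30.9 UPM (27.4-34.6), which overlaps with Thbs4/Igfbp2, but this place depended on the clustering. The state highest in Ptger2 held 0.292% of the Chl1/Sfrp1 cells at resolution 2, 2.48% with pathway genes in the clustering and 26.6% with each library clustered alone. For Ptger4 it held 0% of them at resolution 0.5 and 65.7% to 96.5% under the 6 other clusterings.

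Ptger3 (ENSMUSG00000040016, chr3:157566892-157645888, plus strand) encodes EP3, a prostaglandin E2 receptor that mainly lowers cyclic AMP. It marked the bleomycin state Chl1/Sfrp1 and was among the genes that lead it, although it was left out of the clustering. Its level there was 46.0 UPM (41.7-50.5), with a UMI in 6.86% (5.08-9.02) of thinned cells and 34.2% before thinning. Mfap4/Ces1d followed at 21.4 UPM (16.5-27.3), Meg3/Scara5 at 10.2 UPM and Thbs4/Igfbp2 at 8.83 UPM. Cfd/Serpina3m was at 1.37 UPM (0.796-2.19) and Anxa8/Msln at 1.36 UPM (0.790-2.17). Under 7 other clusterings the highest state of the bleomycin library was at 30.8 to 53.0 UPM and held 65.7% to 100% of the Chl1/Sfrp1 cells. No alveolar macrophage held a UMI of it in either library, which allows a share of up to 0.469% of 639 saline cells and 0.904% of 332 bleomycin cells.

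Saline states had Ptger3 at 2.39 to 10.3 UPM, so none reached the level of Chl1/Sfrp1. In alveolar fibroblasts it rose from 8.78 UPM (7.49-10.2) to 20.9 UPM (16.2-26.6), a 2.39-fold difference (1.77-3.19). It was the 1 riser and the only member past the size rule among 8 measured, where 1.51% of 5678 genes rose and 3.73% fell. The 66 UMIs of the bleomycin cells sit just past the minimum of 20 UPM, and the call was lost under 5 of 10 alternatives, among which the log2 ratio ran from 0.53 to 2.09.

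Ptgfr (ENSMUSG00000028036, chr3:151796502-151837630, minus strand) encodes the prostaglandin F2 alpha receptor. Its fall was the largest among the members in fibroblasts, from 35.7 UPM (33.4-38.0) to 3.42 UPM (2.94-3.96), which is 10.4-fold lower and a log2 ratio of -3.05. Thinned shares of fibroblasts with a UMI were 7.41% (6.57-8.32) after saline and 0.655% (0.416-0.981) after bleomycin, and 20.6% and 4.33% before thinning. The saline share stands against 0.782% of alveolar macrophages and 0% of 309 alveolar type 2 cells, which allows up to 0.971%. The bleomycin share is not distinct by its interval from the 0.301% (0.00763-1.67) of alveolar macrophages.

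The level differed among saline states. Meg3/Scara5 at 70.8 UPM (56.9-87.2) and Adh7/Pi16 at 64.7 UPM (56.1-74.2), both with the adventitial gene Pi16 among their leading genes, stood above Slc7a10/Colq at 39.8 UPM (35.4-44.5), Rbp4/Gdf10 at 31.1 UPM (25.9-37.1), Tnfaip6/Fosb at 22.5 UPM (19.1-26.3) and Cxcl9/Cxcl5 at 16.4 UPM (11.4-23.0). After bleomycin it remained measurable in Meg3/Scara5 at 28.2 UPM (20.7-37.5) and Mfap4/Ces1d at 16.5 UPM (12.2-21.7). In Chl1/Sfrp1, Cfd/Serpina3m and the 3 fibrotic states it was at 0.942 to 2.70 UPM.

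Within the adventitial fibroblasts, a single state found in both libraries, Ptgfr fell 2.51-fold, a log2 ratio of -1.30. It was the only member of 4 measured to fall and none rose, where 5.91% of 3959 genes fell and 3.86% rose. The call was kept in 4 of the 5 alternatives that could be computed and lost with every cell thinned, where the log2 ratio was -1.58. Alveolar fibroblasts went from 31.2 UPM (28.8-33.9) to 16.2 UPM (12.0-21.3), a log2 ratio of -0.91 that misses 2-fold. Most other settings put this fall past the size rule. The ratio was -2.44 at resolution 2, -2.21 with doublets kept, -2.09 with the strict filter and -1.88 with libraries clustered alone. It was -0.98 to -1.20 with cells thinned, median-of-ratios scaling, pathway genes in, immediate early genes out or the top cell left out. The mean over cells left the call unchanged. Without Tnfaip6/Fosb the ratio was -1.14, past 2-fold. The fall in fibroblasts as a whole was -3.24 without that state.

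**Figure D4:**
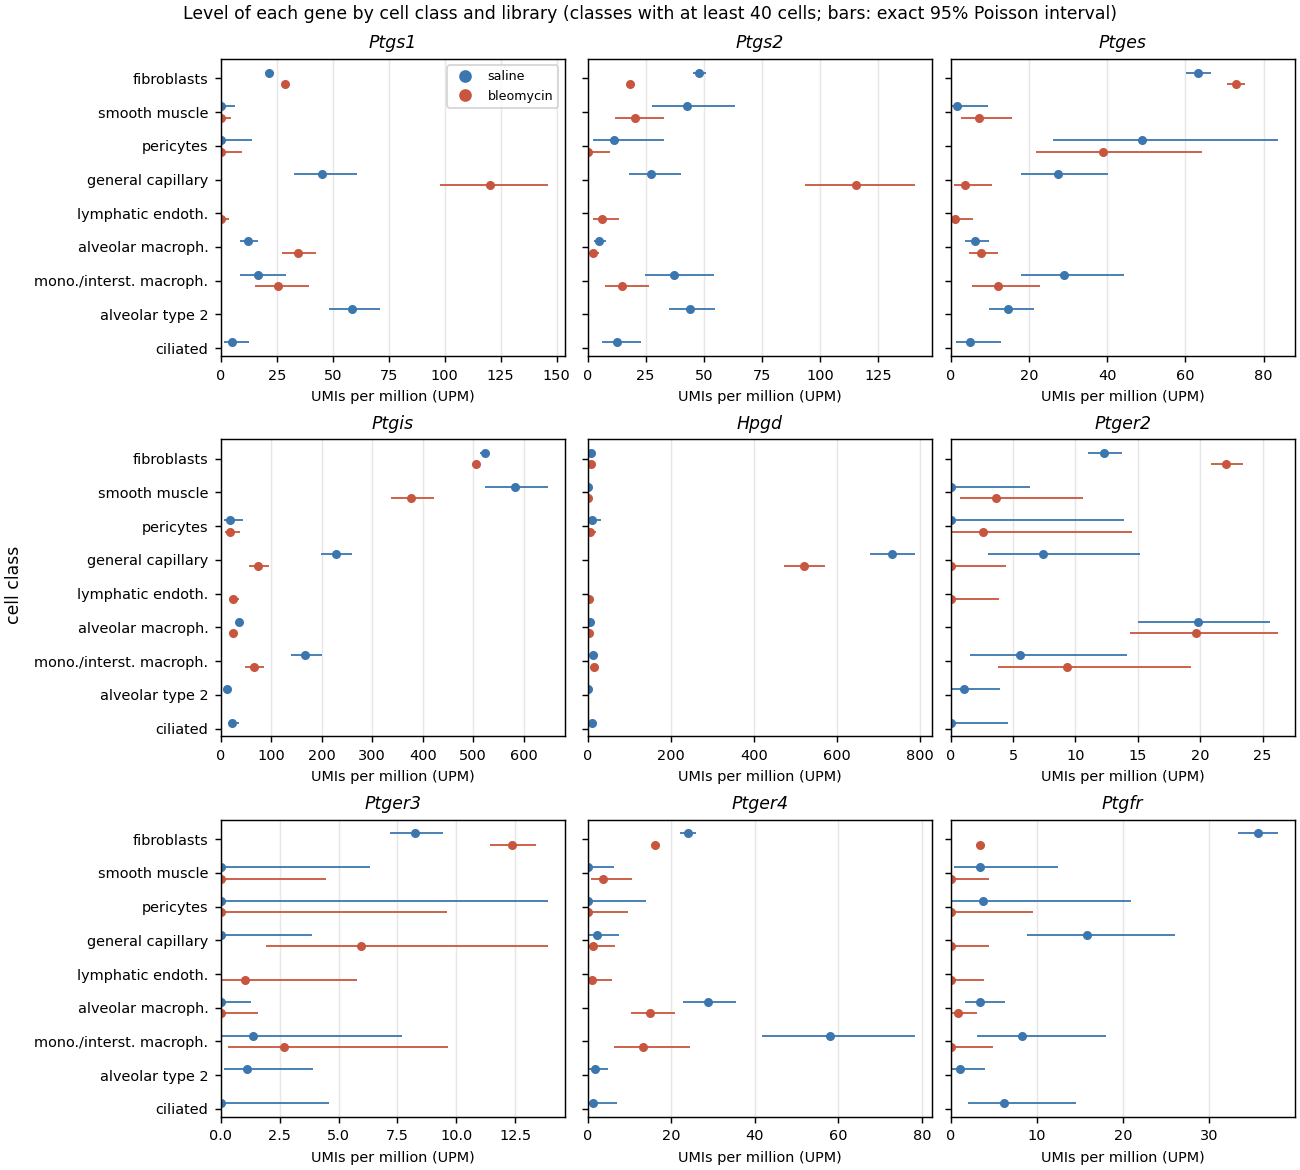
Level of each gene in UPM (horizontal axes, bars are exact 95% Poisson intervals) in 9 cell classes with at least 40 cells in a library (vertical axis), blue for saline and red for bleomycin. Each panel has its own scale. Hpgd is at 733 and 521 UPM in general capillary cells and at 6.94 and 7.32 UPM in fibroblasts, and Ptgs1 and Ptgs2 are higher in the bleomycin capillary cells at 120.4 and 116 UPM.

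Cells with UMIs of a pair of members were counted within fibroblast states, on thinned cells. Only the pairs of Ptges with Ptgs2 or Ptgs1 are given. Also counted were Ptgs2 with Ptger4, Ptgis and Ptgs1, Ptger4 with Ptges and Ptger2, and Ptger3 with Ptges. Ptges was found in 18.6% (11.0-28.4) of the 86 Tnfaip6/Fosb cells with a Ptgs2 UMI and in 12.1% (9.98-14.6) of the 815 without. In Chl1/Sfrp1 the shares were 7 of 28 cells (10.7-44.9%) and 11.9% (9.50-14.6) of 657 cells. For Ptges beside Ptgs1 in Chl1/Sfrp1 they were 22.7% (13.3-34.7) of 66 cells and 11.3% (8.92-14.1) of 619 cells. In each of these 3 pairs the share was higher in cells with the cyclooxygenase UMI and the intervals overlap. Other states did not all go this way. The Ptges share was lower in cells with a Ptgs2 UMI in Adh7/Pi16, at 3.03% against 6.33%, and in saline Meg3/Scara5. Beside Ptgs1 it was lower in Tnfaip6/Fosb, at 6.67% against 13.1%, and in Rbp4/Gdf10, Slc7a10/Colq, Thbs4/Igfbp2 and Anxa8/Msln. It was higher in Mfap4/Ces1d and Cfd/Serpina3m. The intervals overlap in these states too. The differences were not tested.

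Among the other genes of the pathway, 38 in 5 lists, only the prostaglandin transporter gene Slco2a1 passed the size rule in fibroblasts, 1 of 11 measured, where 6.19% of all genes measured rose and 9.72% fell. It rose from 2.79 to 24.7 UPM, a log2 ratio of 2.76, as 1 of the 5 genes measured among 6 of transport and breakdown, in which Slco3a1 was highest at 66.0 UPM after saline. Of 8 other terminal synthases 4 were measured and none rose or fell, with Ptges3, a cytosolic prostaglandin E synthase and HSP90 co-chaperone, highest at 189 and 125 UPM. Of 10 phospholipases A2, 1 was measured, the lysosomal Pla2g15 at 35.0 and 26.0 UPM. None of the 5 other prostanoid receptors reached the minimum, with Ptger1 highest at 13.3 and 9.48 UPM. Of 9 leukotriene and lipoxygenase genes, only Lta4h was measured, at 24.1 and 38.0 UPM. The median log2 ratios of the measured genes were 0.21 for transport and breakdown and -0.55 for terminal synthases, against -0.01 over all genes.

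In alveolar macrophages 3 pathway genes of 13 measured rose and 1 fell, where 2.95% of all genes measured rose and 5.47% fell. The prostaglandin reductase gene Ptgr1 went from 8.54 to 27.8 UPM, the carbonyl reductase gene Cbr3 from 10.3 to 23.5 UPM and Pla2g7, which encodes platelet-activating factor acetylhydrolase, from 5.13 to 22.7 UPM. Lta4h, the leukotriene A4 hydrolase gene, fell from 53.3 to 25.3 UPM. In endothelial cells Ltc4s, the leukotriene C4 synthase gene, rose from 12.2 to 64.4 UPM, alone among 7 pathway genes measured, where 9.78% of all genes rose and 10.5% fell. In all cells together Pla2g1b, at 38.3 and 0.0511 UPM, and Ltc4s, at 54.2 and 25.4 UPM, fell, as 2 of 14 measured where 9.57% of all genes fell, beside a share of epithelial cells that was 9.01% after saline and 0.116% after bleomycin.

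Genes with the most similar pattern were sought over 26 points, each a cluster in a library with at least 50 cells, 13 of them fibroblast states, among 9329 genes. The points share 2 libraries and their depths, so Pearson's r is a description. Ptgis was most like Ltbp1 (0.97), Ptprs (0.96) and Fam132a (0.96), Hpgd like Pcdh17 (0.95), Selp (0.91) and Tmem252 (0.91), and Ptgfr like Aspa (0.93), Fam198a (0.92) and Faim2 (0.92). Ptges was most like Gria3 (0.91), Clmp (0.90) and Papss2 (0.90). For Ptger3 the genes were Nrcam (0.83), Ephx2 (0.82) and Frem1 (0.81), for Ptger2 they were Arhgap24 (0.80), Cers6 (0.78) and Dse (0.78), and for Ptger4 Dse (0.78), Arsb (0.77) and Cebpb (0.76). The lowest likeness was found for Ptgs2, with Pvr (0.72), Serpinb9 (0.71) and Hspa1b (0.71), and Ptgs1, with Fam117b (0.70), Dram2 (0.68) and Adgrl3 (0.67).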

How the data were processed

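The deposited files hold whole-number UMI counts per gene and barcode, made by the authors with Cell Ranger 2.1.1 on mm10, per the submitters' processing notes. Neither the annotation release nor the cell calling is given in the sources used here. Barcodes with at least 500 genes, 1000 UMIs and at most 10% mitochondrial UMIs were kept. Scrublet's own threshold marked 10 saline and 6 bleomycin barcodes, so the barcodes with the highest scores were left out as doublet candidates instead, at 0.8% per 1000 barcodes, 238 and 160 in all.

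Both libraries were clustered together (scanpy 1.11.5, 1990 variable genes, 30 components, Leiden resolution 1) into 25 clusters. The members and the pathway genes were left out, and 10 of them together had been among the variable genes chosen. Classes were named from 35 marker lists, with leading genes computed against other lineages, and thresholds for naming were set after the clusters were seen. Leading genes were also computed against the other clusters of the same lineage, and fibroblast states were named from these. UMIs were summed per class and library, and ratios were computed where both libraries held at least 100 cells of a class. Intervals are exact Poisson for levels, conditional binomial for folds and Clopper-Pearson for shares, all at 95%. Totals were 37570380 UMIs in 5455 saline barcodes and 61537182 in 4473 bleomycin barcodes.

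The members and lists were chosen with earlier results of these data known. All 9 members are named in each comparison. Of each pathway list the genes past the size rule are named, up to 4 by size, with the gene at the highest level, and for each member the 3 genes with the most similar pattern. Gene positions are from the GENCODE annotation of GRCm38, the assembly that mm10 names, and promoters from RefSeq. The list of free RNA from 12 genes of other lung cells summed to 2034 UPM in saline and 106 UPM in bleomycin fibroblasts. Scripts were tested on simulated data. Alternatives changed the depth, weighting, scaling, filters, doublets, clustering and size rule.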

Additional observations from a re-analysis of the deposited data

Results flagged for a closer look

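Ptgs2, the inducible cyclooxygenase gene, moved in opposite directions in fibroblasts and endothelial cells. Its log2 ratio of bleomycin over saline was -1.35 in fibroblasts and 1.20 in endothelial cells. Each value comes from 1 library per group, and the difference was not tested. The fibroblast value was -0.56 without the Tnfaip6/Fosb state, whose removal could only lower the saline level, and the endothelial value was 2.04 in general capillary cells alone. Immediate early genes fell in both classes, 19 of 24 measured in fibroblasts and 17 of 21 in endothelial cells, with sums of 26750 and 20140 UPM in general capillary cells. Lymphatic cells, at 3093 UPM after bleomycin, numbered 19 and 71. The part of the list in either result was not tested.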

How the results depend on the processing

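No paired analysis was possible because each group has 1 library and the labels carry no replicate numbers, and no library could be left out for the same reason. Over up to 11 other settings a class, no member past the size rule changed sign. The call of Ptgfr in fibroblasts was kept in 11 of 11.

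With every cell thinned, members that fell went from 2 to 1 in all cells and from 1 to 0 in adventitial fibroblasts, members that rose went from 0 to 1 in fibroblasts and to 0 in alveolar fibroblasts, macrophages and endothelium, and 2 members fell in alveolar fibroblasts. Pathway genes that rose were then 1 in all cells and 0 in macrophages and endothelium, and those that fell 1 in all cells, 1 in alveolar fibroblasts and 0 in macrophages. The mean over cells gave 1 member that fell and 1 pathway gene in each direction in all cells. Without the UPM minimum, pathway genes that rose and fell were 1 and 4 in all cells, 3 and 2 in fibroblasts, and 3 fell in alveolar fibroblasts.

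In alveolar fibroblasts members that rose went from 1 to 0 with the mean over cells, median-of-ratios scaling, pathway genes in the clustering or the top cell left out, and to 2 with the strict filter, doublets kept or resolution 2. Members that fell there were 2 without the top cell and 1 with median-of-ratios scaling, the strict filter, doublets kept, libraries clustered alone, resolution 2, pathway genes in or immediate early genes out, and 1 pathway gene rose with the strict filter. In macrophages clustered alone, 0 members and 1 pathway gene rose and 2 pathway genes fell, 1 member fell without the top cell, and 0 pathway genes fell with doublets kept. In endothelium 0 members rose with doublets kept and 2 with libraries clustered alone.

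Of the settings chosen after seeing the data, leaving out Tnfaip6/Fosb left 1 member that fell in fibroblasts, and 2 that rose and 1 that fell in alveolar fibroblasts. General capillary cells alone gave 2 members that rose and 1 that fell. The cause of these changes was not tested. Adventitial fibroblasts reached 100 cells in both libraries in 5 of 11 settings, and alveolar fibroblasts and smooth muscle in 10 of 11.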
